A study of Mus musculus with 7 samples.

Results

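The vitamin D receptor (VDR) is the nuclear receptor for 1,25-dihydroxyvitamin D3, written 1,25(OH)2D3, and its binding to DNA was mapped by ChIP-seq in the epithelium of the mouse duodenum and jejunum. The 5 genes described here are Slc37a2, Agpat1, Ppox, Muted and Rbbp8, out of 22367 protein-coding genes in the annotation. They were chosen by 2 measured values, the presence of one VDR region in all 6 peak lists and its place near the first row of each list, so neither value is a result below. All VDR peaks centred within 100 kb of the gene bodies were collected, and up to 150 kb upstream for Rbbp8, which gave 107 of the 87029 merged regions of the series. The region that chose each gene is called its lead region.

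Wild-type mice on a chow diet were aged 8 weeks. They were given 1,25(OH)2D3 at 10 ng per g of weight (3 libraries) or vehicle (3 libraries), and after 1 h the epithelium was released with EDTA. Each library was compared by the authors with 1 shared input library, labelled with the hormone dose. The 3 libraries with 1,25(OH)2D3 listed 25510, 30390 and 41722 peaks, and the 3 vehicle libraries listed 8756, 14888 and 48425. Replicate 3 of each group held 66524392 tags with the hormone and 68560701 with vehicle, and the other 4 libraries held 15991198 to 19733260. The labels do not tie each library to a mouse of its own, so the p-values measure the spread between these libraries. A listed peak says that VDR-associated DNA passed the caller's threshold, and a missing one that it did not pass at that depth. Of the marker genes, 5 of 6 epithelial, 1 of 3 immune and 4 of 5 stromal, muscle, vessel or neuronal ones had a region in all 6 libraries within 100 kb. Of all protein-coding genes, 41.7% had such a region. Peaks near a gene are no measure of its expression, so these counts do not test which cells the preparation held.

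VDR binds DNA as a heterodimer with the retinoid X receptor, mostly at a direct repeat of a pair of short half-sites 3 bases apart, the DR3 element. Hormone binding changes the shape of the receptor and which coregulators it recruits, and in many cells it increases the number of occupied sites, while some sites hold the receptor without added hormone. In the small intestine the receptor is best known for controlling calcium absorption. The 5 genes have other known roles. Slc37a2 encodes a sugar-phosphate exchanger of the endoplasmic reticulum. Agpat1 encodes an acyltransferase that makes phosphatidic acid, the precursor of phospholipids and triglycerides. Ppox encodes protoporphyrinogen oxidase, the penultimate enzyme of haem synthesis. Muted, also called Bloc1s5, encodes a subunit of BLOC-1, a complex needed to build melanosomes and other lysosome-related organelles. Rbbp8, also called CtIP, encodes a factor that starts the trimming of broken DNA ends.

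The best DR3 matches under 4 of the lead regions are shown, so that they can be compared with the receptor's element. That of Rbbp8 is counted below but not shown. Counts of mismatches are set beside other regions further on. Each DR3 match below was read from the mm9 genome on the plus strand, with 6 bases on each side and the 2 half-sites in capitals. The match of Slc37a2 lay in an intron at chr9:37054085-37054111. The matches of Agpat1 (chr17:34741242-34741268) and Ppox (chr1:173211238-173211264) lay just inside the transcribed part of their genes, and that of Muted (chr13:38726998-38727024) lay just before the gene.
Slc37a2, 1 mismatch: attctaGGGTCAgcgGGTTCTgaaaag
Agpat1, 1 mismatch: gtaccaGGGTCGcagGGTTCAagatgg
Ppox, 0 mismatches: cctcagGGGTGAgcaGGTTCAagtctg
Muted, 3 mismatches: gcgtcgGAGTCGttgGGTTCGgggaag
These 4, and not the match of Rbbp8, carried GGTTC as the first 5 bases of the second half-site, so 4 of the 5 lead regions did. The best match in the regions present in all 6 libraries did so in 487 of 4345 (11.2%), and in 32 of the first 100 of these regions by list place. In windows 5 kb away from the regions in all 6 libraries it did so in 2.07%. This shared stretch was noticed after the sequences had been read, so its count carries no test.

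Wider stretches show how the surroundings differed. The Slc37a2 stretch is the middle of its lead region (chr9:37054003-37054123, minus strand, the strand of the gene). Capitals in it mark only the half-sites of the best DR3 match, and other half-sites in it, such as AGGTCA, are in lower case. The other 3 stretches run from the outer edge of the lead region to the base before the annotated gene start, on the strand of the gene. These are chr17:34741103-34741206 (plus) for Agpat1, chr1:173211318-173211426 (minus) for Ppox and chr13:38726979-38727149 (minus) for Muted. Capitals mark GGGCGG and CCAAT, in either orientation, in the Agpat1 and Ppox stretches, and the half-sites of the best DR3 match in the Muted stretch.
Slc37a2: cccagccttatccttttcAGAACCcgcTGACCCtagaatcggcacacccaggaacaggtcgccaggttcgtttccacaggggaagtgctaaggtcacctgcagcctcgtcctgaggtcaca
Agpat1: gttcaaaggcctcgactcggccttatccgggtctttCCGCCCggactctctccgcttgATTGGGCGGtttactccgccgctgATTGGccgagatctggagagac
Ppox: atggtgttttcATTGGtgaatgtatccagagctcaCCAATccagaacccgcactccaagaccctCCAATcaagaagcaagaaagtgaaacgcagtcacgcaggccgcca
Muted: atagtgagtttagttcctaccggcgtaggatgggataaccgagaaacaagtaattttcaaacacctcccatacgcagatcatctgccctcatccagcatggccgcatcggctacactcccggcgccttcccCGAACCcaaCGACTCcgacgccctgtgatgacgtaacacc
The Agpat1 stretch held 2 CCAAT and 2 GGGCGG matches, which share 2 bases at one place, and the Ppox stretch held 3 CCAAT and 0 GGGCGG matches. The Slc37a2 and Muted stretches held none of either.

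The lead regions were described first by their values in the 6 lists, with no test. The authors' score column is 1 in every row, so row order is the only ranking in the files, and which of the caller's values sets that order is not given in the sources used here. The lead region of Slc37a2 (chr9:37053913-37054214) stood at places 10, 8 and 8 in the 1,25(OH)2D3 lists and at 14, 8 and 11 in the vehicle lists. It lay in an intron, at 9.26 kb from the gene start in the direction of transcription. The vehicle library with the lowest standing, replicate 1, is also the one with the shortest list.

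The Agpat1 lead region (chr17:34741103-34741401) stood at places 9, 19 and 17 with 1,25(OH)2D3 and at 10, 7 and 8 with vehicle. The Ppox lead region (chr1:173211117-173211426) stood at places 17, 14 and 14 with 1,25(OH)2D3 and at 16, 11 and 12 with vehicle. Both were centred on the annotated start of the gene, at 45 bp for Agpat1 and 46 bp for Ppox. The groups overlapped at both genes, with 1 hormone library inside the vehicle range for Agpat1 and 2 for Ppox.

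The Muted lead region (chr13:38726856-38727149) was centred at -24 bp from the gene start, where a negative value means upstream. It stood at places 12, 11 and 10 with 1,25(OH)2D3 and at 8, 5 and 6 with vehicle, so it stood nearer the first row in every vehicle list than in any hormone list. Muted was the only one of the 5 whose places did not overlap between the groups. Such a separation was not particular to it. The region nearest to Csl stood at places 20, 28 and 24 with 1,25(OH)2D3 and at 17, 13 and 9 with vehicle. The region nearest to Med13l was separated the other way, at 11, 9 and 9 against 18, 18 and 17. The share of all regions with a separation was not counted. Places in lists of different length, from libraries with different numbers of strong peaks, do not measure binding, so these orders describe the lists.

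The Rbbp8 lead region (chromosome 18, 11654981 to 11655284) lay between genes, at -136.7 kb from the gene start. It stood at places 13, 13 and 11 with 1,25(OH)2D3 and at 21, 10 and 7 with vehicle, the widest vehicle spread of the 5. No gene start lay within 10 kb of it, and Rbbp8 was the gene with the nearest start.

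**Figure D1:**
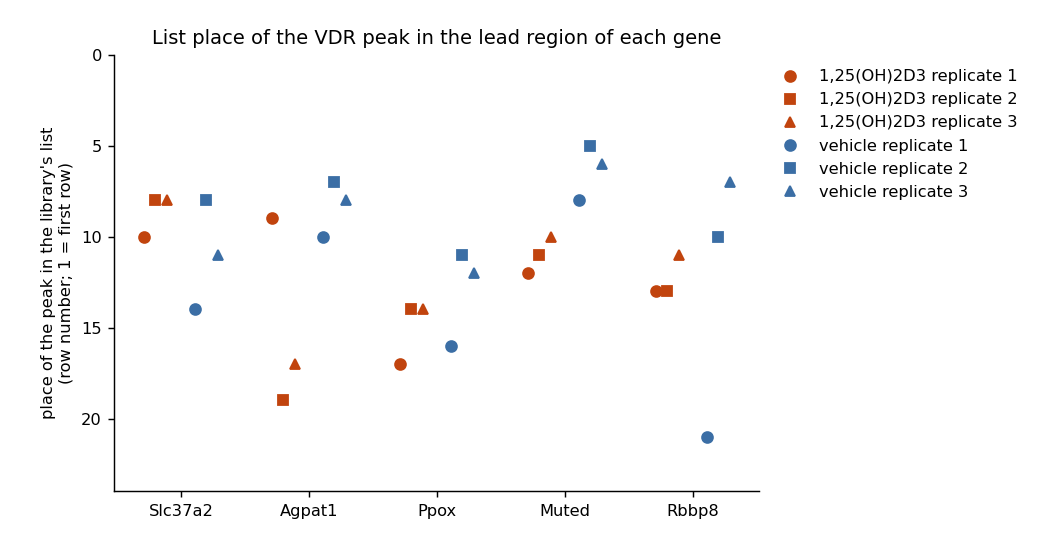
Row number of the lead-region peak (vertical axis, 1 at the top) for each gene in the 3 1,25(OH)2D3 libraries (red, left) and the 3 vehicle libraries (blue, right), with marker shape showing the replicate number. All 30 points lie between places 5 and 21, and the colours separate fully for Muted alone.

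By mean place over the 6 lists, the 5 lead regions were 3rd (Muted, mean place 8.67), 5th (Slc37a2, 9.83), 6th (Agpat1, 11.7), 7th (Rbbp8, 12.5) and 9th (Ppox, 14) among the 4345 regions present in all 6 lists. Ahead of them stood the regions nearest to Slc30a10 (mean place 3.67) and Atp2b1 (7), and among them those nearest to Cyp24a1 and Med13l. The region nearest to Csl stood behind the 5 lead regions, with a mean place of 18.5. The nearest start could be far away, at 47.9 kb for Slc30a10, -321 kb for Atp2b1, -0.253 kb for Cyp24a1, 512 kb for Med13l and 103 kb for Csl. Presence in all 6 lists was found for 4.99% of all merged regions.

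The 6 centres of each lead peak spanned 11 bp for Muted, 16 bp for Agpat1, 23 bp for Rbbp8, 28 bp for Slc37a2 and 29 bp for Ppox. The standard deviation of the 6 peak centres was 3.72 bp for Muted, 7.09 bp for Agpat1, 8.70 bp for Rbbp8, 10.2 bp for Slc37a2 and 13.3 bp for Ppox. The median over the 4345 regions in all 6 lists was 35.2 bp, and over the first 100 of these 13.2 bp. Thus 4 of the 5 lay below the median of regions that also stand near the first row, and Ppox lay just above it. The mean centre with 1,25(OH)2D3 differed from that with vehicle by -9.33 bp for Slc37a2, 11.7 bp for Agpat1, 4 bp for Ppox, 4.67 bp for Muted and 3 bp for Rbbp8.

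**Figure D2:**
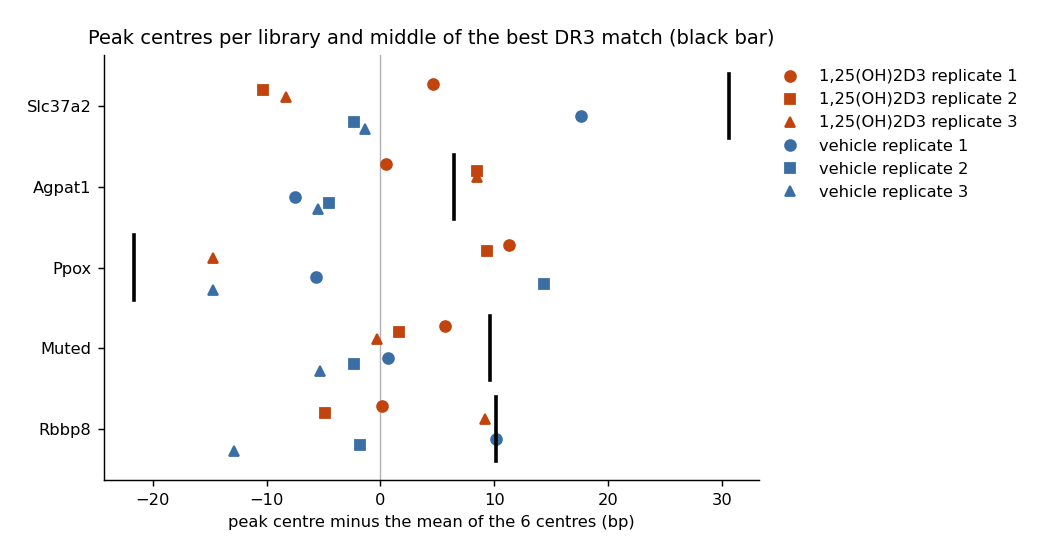
Peak centre in each library minus the mean of the 6 centres (horizontal axis, bp) for the 5 lead regions, with 1,25(OH)2D3 in red above vehicle in blue, and a black bar at the middle of the best DR3 match. The bar lies within 10.2 bp of the mean centre for Agpat1, Muted and Rbbp8, and farther out for Slc37a2 and Ppox.

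A DR3 element was searched in the 201 bp around each lead region's centre, on both strands, with the half-site RGKTSA in the one-letter ambiguity code (R is a purine, K is G or T and S is G or C). Sequence took no part in choosing the genes. The best match had 0 mismatches in Ppox, 1 in Slc37a2, 1 in Agpat1, 2 in Rbbp8 and 3 in Muted, so 4 of 5 were within the limit of 2. Among all regions 46.0% were within that limit, among regions in all 6 lists 71.4%, and among the first 100 of these 96%. Among windows 5 kb away the share was 34.4% for all regions and 36.4% for regions in all 6 lists. Muted was thus one of the 4 of these first 100 regions without a match at that limit, and its best match lay 9.67 bp from the mean peak centre.

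At most 1 mismatch was found in 3 of the 5 lead regions, against 68% of the first 100 and 28.1% of all regions in all 6 lists. In windows 5 kb away the share was 4.13% for all regions and 4.83% for regions in all 6 lists. The middle of the best match lay 6.5 bp from the mean peak centre in Agpat1, 10.2 bp in Rbbp8, 21.7 bp in Ppox and 30.7 bp in Slc37a2. With the half-site set to AGGTCA, the form in which the element is often written, the 5 best matches had 4 or 5 mismatches and 0 of 5 passed. The count therefore depends on the half-site used, and a match describes letters, not binding. AGGTCA allows fewer letters than RGKTSA, and no share of other regions was counted with it. The 0 of 5 is therefore not shown to be particular to these regions.

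**Figure D3:**
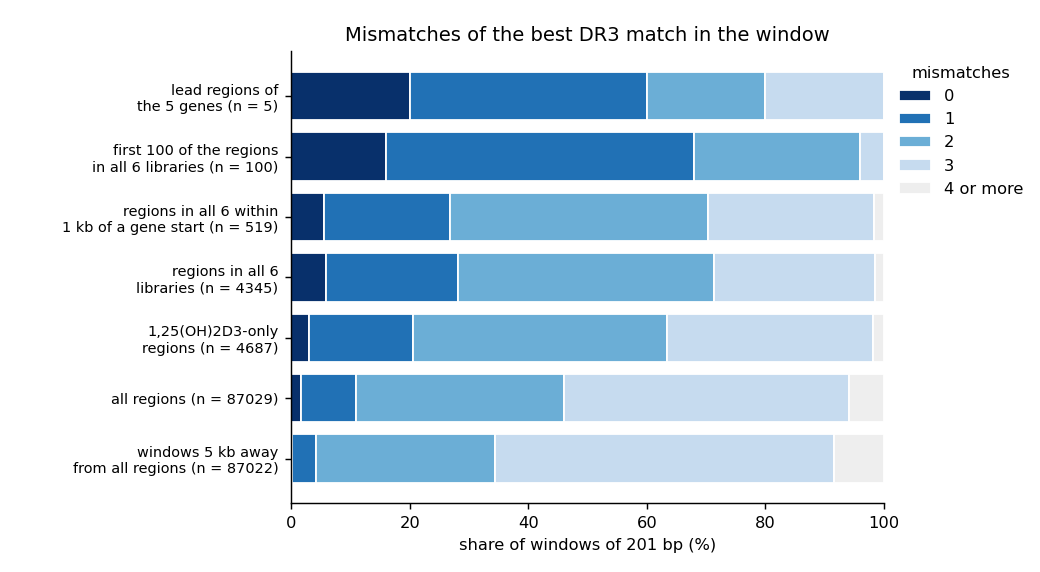
Share of 201 bp windows (horizontal axis, %) by the number of mismatches in the best DR3 match, for the 5 lead regions and 6 larger sets of windows. The 5 lead regions have 4 windows with at most 2 mismatches. The share with at most 2 is 96% in the first 100 regions and 34.4% in windows 5 kb away from all regions.

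Other short motifs were searched exactly, on both strands, in the same windows. These windows of 201 bp do not cover the same bases as the stretches printed above, so the counts of a motif can differ between them. The SP/KLF box GGGCGG was found in the 3 lead regions at gene starts (Agpat1 2 times, Ppox and Muted 1 time each) and in neither of the other 2 lead regions. It was in 6.33% of the regions in all 6 lists and in 19.5% of those within 1 kb of a gene start. The box CCAAT was in Agpat1 (2 matches), Ppox (1) and Rbbp8 (1), beside 24.7% of regions in all 6 lists. The half-site AGGTCA alone was in Slc37a2 (2 matches) and Rbbp8 (1), beside 35.3%. The CDX motif TTTATG was in Rbbp8 alone of the 5 (1 match), beside 16.1%. None of the 5 windows held the GATA motif AGATAA, which was in 25.6% of regions in all 6 lists, or the AP-1 motif TGANTCA, which was in 13.6%. The ETS motif CCGGAAG was likewise in none of the 5 windows, beside 2.05%. The HNF4-type motif CAAAGTCCA was also in none, beside 2.99%. GGGCGG and CCAAT can share bases when they adjoin, as in Agpat1.

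The lead regions fell into different sequence settings. The windows of Agpat1, Muted and Ppox held 63.7%, 61.7% and 56.2% G and C, with 12, 19 and 11 CpG dinucleotides. The Slc37a2 intron window held 54.2% with 6 CpG, and the Rbbp8 window 36.3% with 1 CpG. The median was 47.3% with 2 CpG over regions in all 6 lists, and 53.2% with 6 CpG over those within 1 kb of a gene start. The Rbbp8 window was therefore the most A and T rich of the 5 and the 3 at gene starts the most G and C rich.

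A position within 1 kb of a gene start held for 3 of the 5 lead regions, beside 11.9% of regions in all 6 lists, 19% of the first 100 and 10.1% of all regions. Starts of neighbouring genes also lay close. Within 10 kb of the Agpat1 lead region were the closest annotated starts of Rnf5, a ubiquitin ligase of the endoplasmic reticulum, at -0.617 kb, of Ager, the receptor for advanced glycation end products, at 6.41 kb, and of the homeobox gene Pbx2 at 8.85 kb. Within 10 kb of the Ppox lead region were starts of Usp21, a deubiquitinase, at 1.77 kb, of the galactosyltransferase gene B4galt3 at 7.63 kb, and of Ufc1, an enzyme that conjugates UFM1, at 9.30 kb. The lead regions of Slc37a2 and Muted had starts of the named gene alone within 10 kb. Which of these genes a region acts on was not measured.

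The peaks around each lead region, not used to choose the genes, were then compared between the groups. The number of other peaks per library near Slc37a2 was 4, 6 and 6 with 1,25(OH)2D3 and 0, 5 and 5 with vehicle. Vehicle replicate 1 alone stood apart. The mean was 5.33 ± 1.15 with 1,25(OH)2D3 and 3.33 ± 2.89 with vehicle (SD, n = 3 each), and the difference of 2 peaks did not pass a two-sided exact permutation test (p = 0.5, adjusted over the 5 genes 0.833), which with 3 against 3 cannot go below 0.1.

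Near Agpat1 there were 9, 11 and 11 other peaks with 1,25(OH)2D3 and 2, 4 and 8 with vehicle. Every hormone library was above every vehicle library, with means of 10.3 ± 1.15 and 4.67 ± 3.06 (SD, n = 3 each), a difference of 5.67 peaks, and the p-value was the smallest the design allows (exact permutation p = 0.1, adjusted 0.5). Such a separation held for 18.9% of all protein-coding genes, so 1 of 5 genes is near the background. When every list was shortened to its first 8756 rows, the length of the shortest, the Agpat1 means were 3 with 1,25(OH)2D3 and 2.33 with vehicle (exact permutation p = 0.7, n = 3 each).

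Near Ppox there were 8, 10 and 14 other peaks with 1,25(OH)2D3 and 4, 8 and 8 with vehicle, and the groups met at 8 (exact permutation p = 0.3, adjusted 0.75, n = 3 each). Near Muted there were 2, 1 and 1 with 1,25(OH)2D3 and 1, 1 and 5 with vehicle (exact permutation p = 1, adjusted 1, n = 3 each). The deep vehicle replicate 3 held the 5, and without it the difference of -1 peak became 0.33. Near Rbbp8 there were 10, 14 and 16 with 1,25(OH)2D3 and 6, 6 and 22 with vehicle (exact permutation p = 0.8, adjusted 1, n = 3 each). The widest spread there was again within the vehicle group.

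Libraries with equal replicate numbers were paired, and within the 3 pairs the hormone library minus the vehicle library was 4, 1 and 1 peaks for Slc37a2, 7, 7 and 3 for Agpat1 and 4, 2 and 6 for Ppox. All 3 pairs had the same sign at these 3 genes, each with an exact sign permutation p of 0.25, the smallest that 3 pairs allow. Of all protein-coding genes, 69.9% had more peaks with the hormone than with vehicle. The share of genes with the same sign in all 3 pairs was not counted. The shared sign is therefore not shown to be particular to these genes. The pairs gave 1, 0 and -4 for Muted and 4, 8 and -6 for Rbbp8 (exact sign permutation p = 1 and 0.75).

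Summed over the 5 genes, the libraries held 33, 42 and 48 other peaks with 1,25(OH)2D3 and 13, 24 and 48 with vehicle. The mean difference of 12.7 peaks was smaller than the vehicle SD of 17.9 and did not pass the test (exact permutation p = 0.4, n = 3 each). Leaving out vehicle replicate 3 gave 22.5 peaks, and leaving out vehicle replicate 1 gave 5. With equal list lengths the difference was -2 peaks (10 with 1,25(OH)2D3, 12 with vehicle). List length and depth moved with these counts, and their part in them was not tested. Over all protein-coding genes the median number of peaks within 100 kb was 4.67 with 1,25(OH)2D3 and 3 with vehicle.

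**Figure D4:**
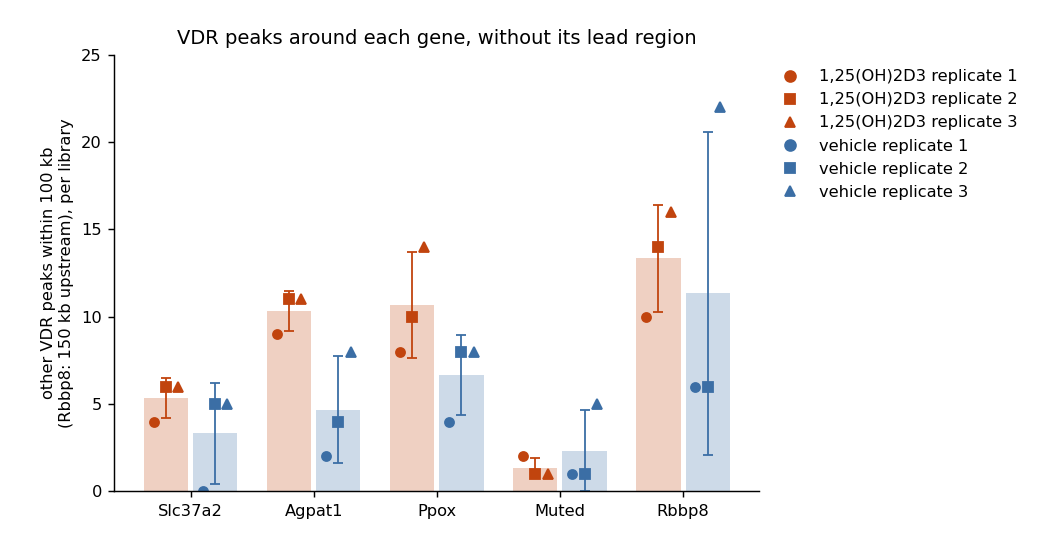
Number of VDR peaks per library around each gene, lead region left out, with 1,25(OH)2D3 (red) left of vehicle (blue), bars at the mean, error bars of 1 SD (n = 3) and markers for each replicate. Agpat1 alone shows no overlap, and the vehicle replicate 3 triangle is the highest point for Rbbp8 and Muted.

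Merging the peaks gave 102 regions around the 5 genes besides the lead regions. Of these, 4 were in all 6 libraries, read beside the 4.99% above, and 5 were in all 3 hormone and no vehicle library, beside 5.39% of all merged regions. None was in all 3 vehicle and no hormone library, a class that held 0.0299% of all regions. One library alone held 61 of the 102, beside 62.6% of all regions, and 27 of these were in vehicle replicate 3, the library with the longest list. The counts move with single libraries. The 5 hormone-only regions became 9 without 1,25(OH)2D3 replicate 1 and 10 without vehicle replicate 3, and the 4 regions in all libraries became 9 without vehicle replicate 1 and 7 without vehicle replicate 2. With equal list lengths, 0 were hormone-only and 2 were in all 6.

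A further 9 regions were in 5 of the 6 libraries, and the missing library was a vehicle one each time, replicate 1 in 5 cases, replicate 2 in 3 and replicate 3 in 1. The order of these counts is that of the vehicle list lengths reversed. The gene's own promoter in Slc37a2 was such a region. It was centred at -76 bp and stood at places 6965, 5312 and 5184 with 1,25(OH)2D3 and at 4129 and 6925 in vehicle replicates 2 and 3.

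**Figure D5:**
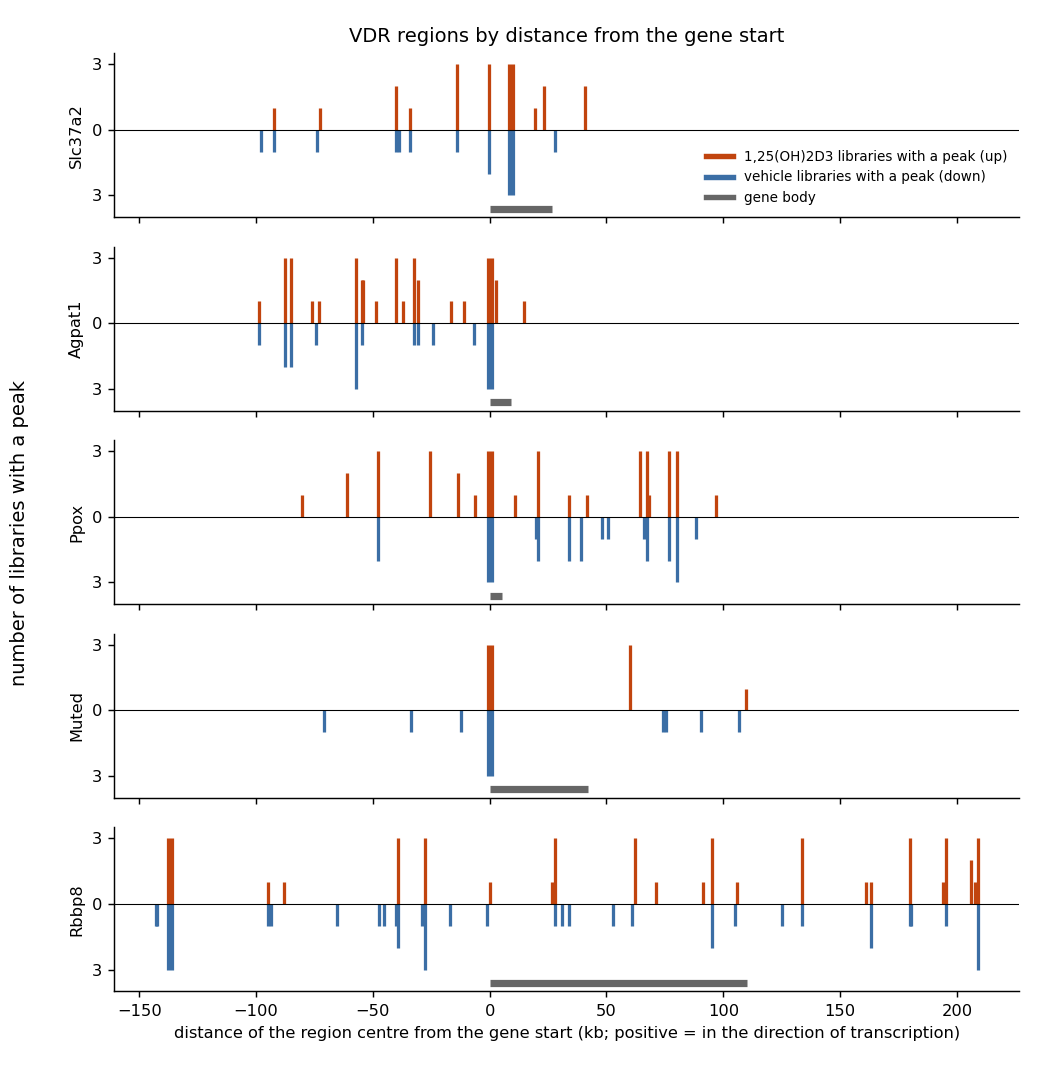
Distance of each merged region's centre from the gene start (horizontal axis, kb, positive along transcription) against the number of libraries with a peak, 1,25(OH)2D3 upward in red and vehicle downward in blue. Thick lines are the lead regions and grey bars the gene bodies. The lead regions reach 3 and 3, and most other lines reach 1 on one side.

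Around Slc37a2, 0 of 13 other regions were in all 6 libraries and 0 were hormone-only. Around Agpat1, 1 of 20 was in all 6 libraries. It lay at the start of Btnl7, a butyrophilin-like gene, at -57.2 kb from the Agpat1 start, and stood at places 4728, 2733 and 5102 with 1,25(OH)2D3 and at 2346, 2883 and 5646 with vehicle. The hormone-only region at Agpat1 lay near the start of Notch4, a receptor of the Notch pathway, at places 22057, 22653 and 22997 with 1,25(OH)2D3. These last places are far down lists of 25510 to 41722 rows.

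Within Agpat1 itself a region at 2.65 kb from the start was at places 1193 and 965 in 1,25(OH)2D3 replicates 2 and 3 and in no other list. It made Agpat1 the only gene of the 5 with another region within 5 kb of its lead region, beside 46.8% of regions in all 6 lists and 25% of the first 100. The nearest other regions lay 5.72 kb from the lead region at Rbbp8, 6.26 kb at Ppox, 9.34 kb at Slc37a2 and 12.1 kb at Muted. The caller required peaks to be 4-fold over the surrounding 10 kb, and the part of this filter in these distances was not tested. Why a peak at such places in 2 hormone lists was missing from the third was not tested.

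Around Ppox, 1 of 22 other regions was in all 6 libraries. It lay between genes nearest to Pcp4l1, at 80.1 kb from the Ppox start, and stood at places 1123, 1777 and 1053 with 1,25(OH)2D3 and at 702, 912 and 1538 with vehicle. One of the 2 hormone-only regions lay in an exon of Nr1i3, which encodes the xenobiotic receptor CAR, at places 9642, 9624 and 7630 with 1,25(OH)2D3. The start of Nr1i3 itself held a region in 5 of 6 libraries, as did the start of Dedd, a death effector domain gene, where the places were 1265, 2935 and 1379 with 1,25(OH)2D3 and 2796 and 2247 in vehicle replicates 2 and 3. Ppox had the most regions at gene starts, 10 of its 22.

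Around Muted, 0 of 9 other regions were in all 6 libraries, and 8 of 9 were in a single library. The 1 hormone-only region lay between genes at 60.3 kb from the Muted start, at places 16901, 24726 and 26750 with 1,25(OH)2D3. Muted thus combined a lead region among the first 12 rows of every list with the fewest other regions of the 5 genes.

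Around Rbbp8, whose window was the widest at 359.9 kb, 2 of 38 other regions were in all 6 libraries. One lay at -27.8 kb from the Rbbp8 start, at places 22947, 25955 and 30385 with 1,25(OH)2D3 and at 7717, 7845 and 15884 with vehicle. The other lay in an intron of Cables1, a gene linked to cyclin-dependent kinases, at places 6123, 7974 and 11817 with 1,25(OH)2D3 and at 5928, 10908 and 11464 with vehicle. A region at -10.5 kb from the Cables1 start was at places 4247, 2833 and 3460 with 1,25(OH)2D3 and, of the vehicle lists, in replicate 3 alone, at place 1097. The hormone-only region lay in an Rbbp8 intron, at 62.3 kb from the start. The start of Rbbp8 held a peak in 1 library, 1,25(OH)2D3 replicate 2.

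The 102 other regions held a DR3 match with at most 2 mismatches in 48 cases (47.1%), beside 46.0% of all regions. By gene these were 16 of 20 near Agpat1, 13 of 22 near Ppox, 4 of 9 near Muted, 13 of 38 near Rbbp8 and 2 of 13 near Slc37a2. The matches were in 4 of the 4 regions in all 6 libraries, beside 71.4% of such regions in the whole series. They were in 4 of the 5 hormone-only ones, beside 63.4% of such regions, and in 26 of the 61 in a single library. Outside Rbbp8, 6 of the other regions were in all 6 libraries or hormone-only. The best matches of 3 of these are shown, both in all 6 libraries (1 mismatch each) and the 1 of the 6 that carried GGTTC in the second half-site (2 mismatches), with capitals for the half-sites.
Near Pcp4l1, chr1:173131182-173131208, plus strand: gaccagAGGTCActgAGTTGCtgggaa
At the Btnl7 start, chr17:34684011-34684037, minus strand: atgttaAGGTCAcagAGGTGGggttgg
Hormone-only region at -25.6 kb from the Ppox start, chr1:173236868-173236894, plus strand: cactcaAGGGCAtagGGTTCTttaaag
These 3 were chosen after their letters were seen.

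Genes of the same pathways were looked at from lists, read beside the 41.7% of all protein-coding genes with a region in all 6 libraries within 100 kb and the 47.2% with a hormone-only region there. Of the 40 listed genes, 28 had a region in all 6 and 25 a hormone-only one. These are shares of genes and carry no test, and neighbours can share a region. A region could lie anywhere within 100 kb of the gene body, also nearer to another gene. Of 8 other genes of haem synthesis, 6 had a region in all 6 and 4 a hormone-only one. The best placed were within 100 kb of Urod (mean place 642), Cpox (2203), Fech (2283) and Alas1, the first and usually limiting enzyme (3708).

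Of 14 other genes of glycerolipid synthesis, 10 had a region in all 6 and 8 a hormone-only one. Agpat3, which acts at the same step as Agpat1, had the best placed one, at places 110, 103 and 135 with 1,25(OH)2D3 and at 105, 234 and 192 with vehicle. Dgat2 and Mogat2, acyltransferases of triglyceride synthesis, are neighbours and share 1 region at a mean place of 203. The best region of Agpat2, at the same step as Agpat1, had a mean place of 256. All 3 other members of the Slc37 family had a region in all 6, and 2 a hormone-only one. The best mean places were 58.3 for Slc37a4, the glucose-6-phosphate transporter, 245 for Slc37a3 and 413 for Slc37a1. In this order the regions lay 93.8, 134 and 23.9 kb from the gene start. That of Slc37a4 was nearest to Bcl9l, at -8.20 kb from the Bcl9l start.

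Of 7 genes of BLOC-1 and its partners, 5 had a region in all 6 and 5 a hormone-only one. The best placed were within 100 kb of Bloc1s2 (mean place 3207), Bloc1s3 (4904), Pldn (5125) and Bloc1s1 (6766). Of 8 genes of DNA end resection, 4 had a region in all 6 and 6 a hormone-only one. The best mean places were 298 for Brca1, 1375 for Rad50, 2349 for Mre11a and 5299 for Dna2. The Brca1 region lay 103 kb from the Brca1 start.

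Likeness to each member in the places of the best peaks over the 6 libraries was measured as the Euclidean distance of log10 places among 22224 genes over 500 kb away. 4930470P17Rik, whose best peak has the places of the region at the start of Cyp24a1, the enzyme that inactivates the hormone, was the closest to Slc37a2 (0.43) and the second closest to Agpat1 (0.84), Muted (0.76) and Rbbp8 (0.72). At that region the places were 6, 6 and 5 with 1,25(OH)2D3 and 11, 14 and 13 with vehicle, nearer the first row in every hormone list, while Muted stood the other way. The third places went to Gm11147 for Slc37a2, Agpat1, Ppox and Rbbp8 and to Eprs for Muted, and Fam122a was the second closest to Ppox (0.63). The best peaks of these genes also have the places of regions nearest to other genes. These are Slc35f2 for Gm11147, Slc30a10 for Eprs and Pip5k1b for Fam122a. This likeness rests on the same places that chose the genes, so it is a description.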

How the data were processed

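VDR ChIP-seq peak lists of 6 libraries (3 1,25(OH)2D3, 3 vehicle) were used. The input library has no list here. Per the file headers, HOMER's findPeaks called each library alone against the shared input, with a false discovery rate of 0.001, at least 4-fold over input and over the surrounding 10 kb, a Poisson p of 0.0001 and a clonal filter of 2. Reads were aligned with Bowtie to mm9, per the submitters' processing notes, and versions are not given in the sources used here. The deposited score column, per the file headers and values, is 1 in every row. Tag counts per peak were not used here, so peaks were counted.

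Peaks were shifted to 1-based coordinates and merged where they overlapped by at least 1 bp (Python 3.11.15, numpy 2.4.6, pysam 0.24.0). NCBI build 37 with GENCODE mouse release 1 gave sequence and annotation. Scripts were tested on simulated data. Groups were compared by exact permutation, with Benjamini-Hochberg adjustment over the 5 genes. Pairs were formed by equal replicate numbers. Deviations of peak counts over 22367 genes correlated at 0.171, 0.158 and 0.254 for equal numbers, and at most 0.0243 otherwise. Replicate 3 was the deepest library of each group, and the part of depth in these correlations was not tested. The genes, the pathway lists and the motifs were chosen with earlier results of these data known. Named genes were the 5 members, genes with a start within 10 kb of a lead region, the 3 most like genes per member, and up to 4 best placed genes per list. One of the like genes and its region are not reported here. Alternatives were a 50 kb window, other list lengths, a stricter overlap, other motif settings, pairing, and leaving out libraries.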

Additional observations from a re-analysis of the deposited data

How the results depend on the processing

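The difference in summed other peaks between 1,25(OH)2D3 and vehicle kept its sign in 10 of 12 alternatives, and no alternative passed 0.05. It turned to -2 peaks with equal list lengths and to -0.87 when counted per 10000 peaks. With the replicate block, an exact sign permutation over 3 pairs that cannot go below 0.25, it was 12.7 peaks (p = 0.5), and pairing changed no other call. Leaving out each library gave 5 to 22.5 peaks. By gene, equal list lengths gave -1.67 for Ppox and -1 for Rbbp8, the first 50% of each list gave -0.33 for Slc37a2 and -1 for Rbbp8, counting per 10000 peaks gave -0.60 for Ppox and -1.02 for Rbbp8, and replicates 1 and 2 gave 0.5 for Muted. Leaving out each library gave -0.67 to 7.33 for Rbbp8 and -1.67 to 0.33 for Muted. Agpat1 kept its sign in all 12, from 0.67 to 7.33.

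The 5 hormone-only regions became 3 when peaks had to overlap by 50% of the shorter one, 0 with equal list lengths, 1 with the first 50% of each list and 12 with replicates 1 and 2, and 5 to 10 without 1 library. The 4 regions in all 6 became 1 within 50 kb, 2 with equal list lengths, 2 with the first 50% of each list, and 4 to 9 without 1 library. With AGGTCA as the half-site, 0 lead regions held a DR3 element, and 3 did at no more than 1 mismatch. The 28 pathway genes became 19 within 50 kb and 22 with equal list lengths. Except where fewer rows or a narrower window removes peaks, the cause was not tested. Without tag counts per peak, a strong and a weak peak count the same, and depth limits what the shorter lists can show.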
